A study of Mus musculus with 6 samples.

Results

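The SLC25 family comprises mostly carriers that move metabolites across the inner mitochondrial membrane. Its members were taken as every gene of the deposited table whose symbol is Slc25a followed by a number, which gave 45 of 19241 genes. The table gives their expression in the whole interscapular brown adipose depot of newborn mice, measured by bulk RNA sequencing of total RNA. The WT group is 3 libraries from newborns with a floxed Fstl1 gene. The KO group is 3 libraries from newborns labelled Myf5-Fstl1 KO. Fstl1 encodes follistatin-like 1, a secreted glycoprotein, and Myf5 marks precursors of skeletal muscle and of much of the interscapular brown fat. The labels do not name the driver of the deletion, list the cells that lost Fstl1 or say whether a library came from 1 animal or from several. Values are FPKM, fragment counts divided by transcript length and library depth, so that levels of different genes can be set side by side per length.

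SLC25 carriers are built from repeats of a pair of membrane helices and open alternately to either side of their membrane. They exchange ATP for ADP, bring in phosphate, pass acids of the citric acid cycle and amino acids, and supply cofactors that the matrix does not make. Brown fat cells are packed with mitochondria that burn fatty acids for heat, and their carnitine carrier feeds acyl groups to oxidation. The uncoupling protein Ucp1 belongs to the same protein family by structure, but its symbol does not follow the Slc25a pattern, so it is reported here only beside the members.

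Fstl1, the targeted gene, was at 55.52, 130.04 and 54.37 FPKM in WT, against 7.93, 13.08 and 8.77 FPKM in KO (values are given in the order of replicates 1, 2 and 3 throughout), so that the KO mean was 12.4% of the WT mean (log2 fold change −2.79, limma adjusted p 0.00979). Markers of brown fat and of adipocytes were present in every library, among them Cidea at 1299 to 1988 FPKM and Adipoq at 889.1 to 1216 FPKM, as the tissue label states. Other markers of the same lists, such as Elovl3, Otop1 and Plin1, were lower in KO and are given below. Xist was at 44.82 to 85.51 FPKM in the WT libraries and at most 0.92 FPKM in KO, whereas the Y-linked Eif2s3y was at 83.71 to 99.31 FPKM in KO and at most 0.08 FPKM in WT. Sex and genotype therefore cannot be told apart in any comparison below. Of the members, Slc25a5, Slc25a14, Slc25a43 and Slc25a53 lie on the X chromosome. The labels do not say that the libraries of a group came from separate animals, so the p-values measure the spread between these libraries, which may be technical. In bulk tissue, fewer cells of a type and less RNA per cell cannot be told apart.

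The stretches before the start sites of 5 members are shown because 4 of them, Slc25a22, Slc25a17, Slc25a20 and Slc25a39, are those with the smallest p among the members lower in every KO library than in any WT library, and because Slc25a5 had the highest level of the family. Each is the longest part, outside annotated exons, of the 250 bases before a RefSeq start site (GRCm38.p6), written 5′ to 3′ on the strand of the gene. A further Slc25a22 window, inside an annotated exon, is left out. Capitals mark matches on either strand to GGGCGG (the GC box) or CCAAT (the CCAAT box).
Slc25a22, first start site, chr7:141437893-141438112, minus strand: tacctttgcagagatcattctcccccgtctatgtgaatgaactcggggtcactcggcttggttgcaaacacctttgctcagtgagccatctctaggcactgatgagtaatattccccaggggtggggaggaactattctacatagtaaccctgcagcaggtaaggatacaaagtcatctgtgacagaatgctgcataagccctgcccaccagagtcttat
Slc25a22, a start site inside the gene, chr7:141435398-141435625, minus strand: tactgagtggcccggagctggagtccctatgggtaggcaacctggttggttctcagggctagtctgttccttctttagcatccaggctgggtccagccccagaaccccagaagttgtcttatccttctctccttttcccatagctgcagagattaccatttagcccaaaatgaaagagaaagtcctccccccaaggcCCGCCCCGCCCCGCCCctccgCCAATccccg
Slc25a17, chr15:81360813-81361015, minus strand: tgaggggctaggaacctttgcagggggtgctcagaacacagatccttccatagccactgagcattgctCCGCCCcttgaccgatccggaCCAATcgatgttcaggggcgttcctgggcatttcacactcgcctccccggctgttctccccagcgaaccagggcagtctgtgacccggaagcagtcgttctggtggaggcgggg
Slc25a20, chr9:108661886-108662087, plus strand: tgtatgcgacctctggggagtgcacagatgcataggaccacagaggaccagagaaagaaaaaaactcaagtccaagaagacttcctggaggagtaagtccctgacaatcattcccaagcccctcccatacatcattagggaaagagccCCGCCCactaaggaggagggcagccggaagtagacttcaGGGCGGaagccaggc
Slc25a39, chr11:102407545-102407767, minus strand: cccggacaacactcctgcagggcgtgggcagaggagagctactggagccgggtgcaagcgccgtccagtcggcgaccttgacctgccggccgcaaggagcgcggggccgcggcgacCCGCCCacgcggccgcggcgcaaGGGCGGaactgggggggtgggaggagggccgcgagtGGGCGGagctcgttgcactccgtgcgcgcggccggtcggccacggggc
Slc25a5, chrX:36795347-36795596, plus strand: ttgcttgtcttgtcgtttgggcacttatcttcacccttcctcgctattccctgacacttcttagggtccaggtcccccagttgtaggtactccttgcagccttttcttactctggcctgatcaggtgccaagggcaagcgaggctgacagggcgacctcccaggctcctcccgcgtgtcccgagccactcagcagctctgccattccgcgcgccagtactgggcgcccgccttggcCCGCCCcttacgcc
The stretch before the first Slc25a22 start holds no match and 3 CpG dinucleotides. The full window of 250 bases before that start, exon bases included, holds 1 GC box and 4 CpG. The stretch before the start inside that gene holds 3 GC boxes that follow each other and share end bases, then 1 CCAAT box. Slc25a39 has 3 GC boxes and 32 CpG dinucleotides, Slc25a20 has 2 GC boxes and 4 CpG, Slc25a17 has 1 GC box and 1 CCAAT box, and Slc25a5 has 1 GC box and 14 CpG. In the full windows, Slc25a39 has 5 GC boxes and Slc25a20 has 3.

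Promoter entries were found for 35 of the 45 members, in 45 windows of 250 bases. A GC box was present in 71.1% of these windows, beside 32.7% of all 32851 windows of the same length, and a CCAAT box in 46.7%, beside 33.8%. The letters TATAAA, the TATA box, were in 4.44% of the member windows and in 12.4% of all windows. The median number of CpG dinucleotides was 12 in the member windows and 6 in all windows. The cAMP response element TGACGTCA was found in 2 member windows, of Slc25a25 and Slc25a36, which is 4.44% beside 1.55% of all windows. The oestrogen-related receptor element TCAAGGTCA was in 0 member windows and in 0.387% of all. All motifs were searched on both strands, and matches of different motifs could overlap. Slc25a51 and Slc25a32 had no entry.

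Expression of the family spanned more than 4 orders of magnitude only if Slc25a48 is counted, whose mean of 0.017 FPKM rests on KO replicate 1, at 0.1 FPKM. Means over the 6 libraries were at least 100 FPKM for 6 members, 10 to 100 FPKM for 16, 1 to 10 FPKM for 14, 0.5 to 1 FPKM for 4 and under 0.5 FPKM for 5. The highest was Slc25a5, an ADP/ATP carrier, with a mean of 601.7 FPKM, rank 149 among all genes of the table. It was followed by Slc25a4 (341.7 FPKM), Slc25a3 (312.9 FPKM), Slc25a20 (277.7 FPKM), Slc25a51 (210.1 FPKM) and Slc25a39 (158.7 FPKM). Slc25a5 stood above every other member in every library. The ranges of Slc25a4, Slc25a3 and Slc25a20 over the libraries overlapped, and so did those of Slc25a51 with Slc25a20 and with Slc25a39. The 45 members summed to 2479, 2817 and 2971 FPKM in WT and to 2566, 2304 and 2596 FPKM in KO. The group means were 2755 ± 252 FPKM in WT and 2488 ± 160 FPKM in KO (SD, n = 3 each), and the groups overlapped. The KO mean was 90.3% of the WT mean, and the family made up 0.53% of the summed FPKM of all genes in WT and 0.49% in KO. The 5 highest members held 65.2% of the family sum in WT and 68.1% in KO.

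**Figure D1:**
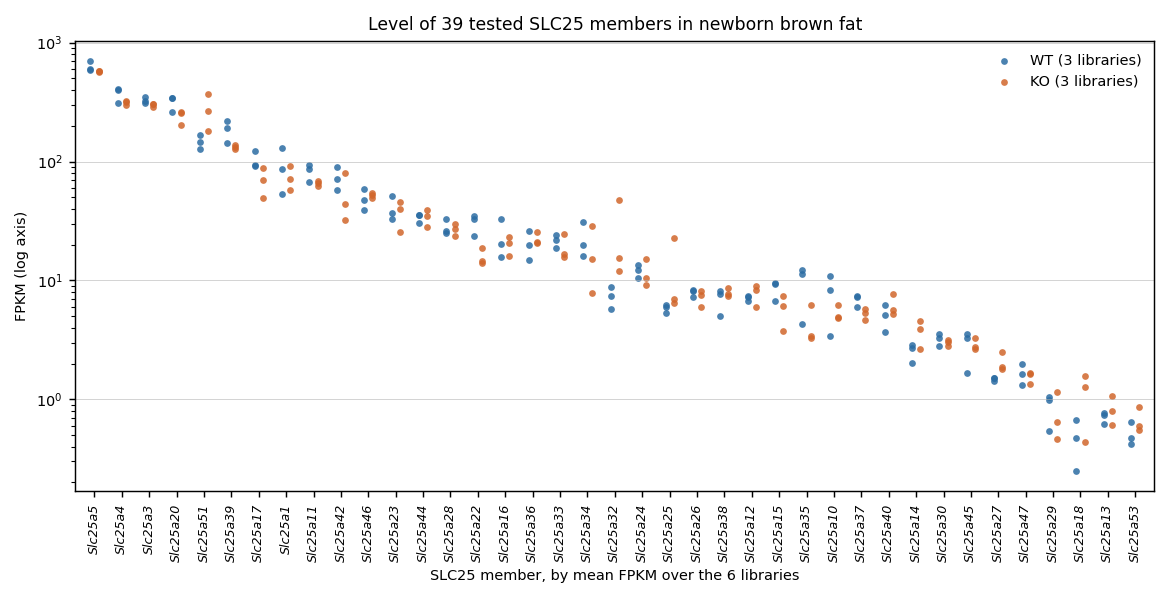
FPKM on a log axis of 39 tested SLC25 members, ordered by their mean over the 6 libraries, with 1 point per library (blue WT, orange KO). Slc25a5 lies highest, at 563.52 to 698.27 FPKM, and the members on the right lie near or below 1 FPKM.

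The comparison of KO with WT asks how carrier expression in the depot differs in newborns labelled as lacking Fstl1. Of the family, 1 member passed the test: Slc25a22, a mitochondrial glutamate carrier, fell in KO to 51.9% of its WT mean. The NAD carrier Slc25a51 and the folate and FAD carrier Slc25a32 were higher in every KO library than in any WT library, without passing. The tested ADP/ATP and phosphate carriers, from the group with the highest summed expression, did not pass and had KO means of 84.6% to 90.9% of WT. Among them, Slc25a5 and Slc25a3 were lower in every KO library than in any WT library, and Slc25a4 overlapped.

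The test was limma's moderated fit on log2(FPKM + 1) over all 13331 genes averaging at least 0.5 FPKM, with Benjamini-Hochberg adjustment over all of them and a threshold of 0.05. Fold changes are on this log2(FPKM + 1) scale, where those of weakly expressed genes come out too small. Of the 45 members, 40 were tested. The 1 member past the threshold is 2.5% of the 40, beside 2.21% of all genes tested. It was lower in KO, a direction in which 1.01% of all genes passed, and 0 members passed as higher, beside 1.21% of all genes. At an unadjusted p under 0.05 there were 5 members lower in KO (12.5%, beside 8.6% of all genes) and 2 higher (5%, beside 10.6%). The groups did not overlap in 7 members lower in KO (17.5%, beside 11.4% of all genes) and in 4 members higher (10%, beside 13.6%). Of the 40 members, 25 had a log2 fold change below 0 (62.5%, beside 48.4% of all genes). The median log2 fold change of the members was −0.11, with quartiles of −0.33 and 0.12, and that of all genes was 0.01, with quartiles of −0.18 and 0.22. The members' median was −0.04 without WT replicate 3 and −0.06 without KO replicate 3. In 31 of the 40 members the log2 fold change lay within 0.5 of 0. The share past the threshold was close to that of all genes tested. Exons of 14 members overlap those of another gene in the GENCODE annotation, by 5 nt (Slc25a47) to 545 nt (Slc25a35) at the longest. Among these members are Slc25a10, Slc25a11, Slc25a18, Slc25a21, Slc25a23, Slc25a25, Slc25a26, Slc25a33, Slc25a35, Slc25a37, Slc25a46, Slc25a47 and Slc25a51. With strand handling not given in the sources used here, reads inside an overlap cannot be told apart from those of the other gene. For Slc25a47 and Slc25a51 the other gene lies on the same strand. With array weights, an alternative that weights libraries unequally, 13 members passed, and leaving out 1 library gave 0 to 2, with 2 when WT replicate 1 was left out and 0 when any other was.

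**Figure D2:**
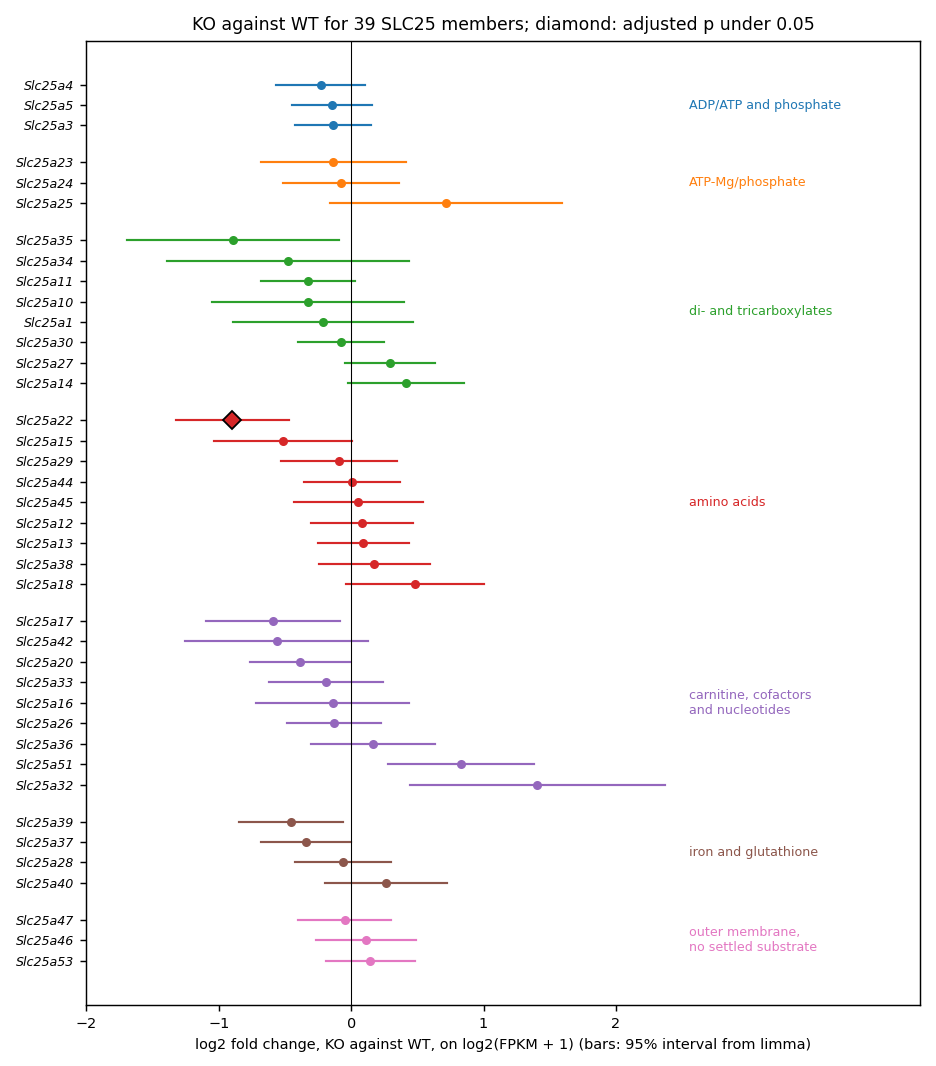
Log2 fold change of KO against WT on the log2(FPKM + 1) scale for 39 tested members, grouped by the role assigned to them, with 95% intervals from limma. The diamond marks Slc25a22 at −0.90, the member with an adjusted p under 0.05, and the intervals of most others include 0.

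Slc25a22 (Entrez gene 68267, chr7:141429749-141437874) carries glutamate with a proton into the matrix. Its level was 23.60, 32.72 and 34.89 FPKM in WT, against 18.81, 13.95 and 14.57 FPKM in KO. Each KO library lay below each WT library, and WT replicate 1 was the lowest of WT. The means were 30.4 ± 5.99 FPKM in WT and 15.8 ± 2.65 FPKM in KO (SD, n = 3 each). This is a log2 fold change of −0.90 (SE 0.19, 95% interval −1.32 to −0.47, limma adjusted p 0.0483). The call lay near the threshold: the adjusted p in limma ran from 0.00334 to 0.203 over 19 alternative settings, in which the direction held throughout and the threshold was passed in 9. Leaving out 1 library ended the call for WT replicate 2 (limma, adjusted p 0.203), WT replicate 3 (0.147), KO replicate 1 (0.0700), KO replicate 2 (0.138) and KO replicate 3 (0.134), but not for WT replicate 1 (0.0325).

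**Figure D3:**
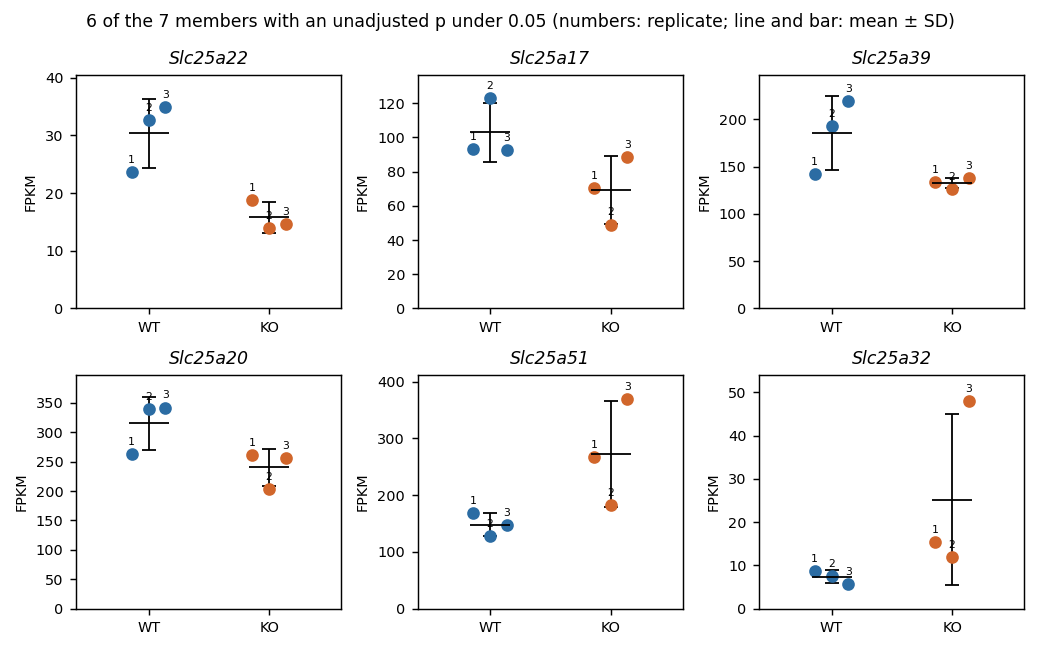
FPKM in each library of 6 of the 7 members with an unadjusted p under 0.05, with the mean and SD of each group of 3 and the replicate number beside each point. In all 6 panels the WT and KO points do not overlap, unlike those of the member not drawn, Slc25a35, and KO replicate 3 is the highest point for Slc25a51 and Slc25a32.

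Of the 9 amino acid carriers tested, 3 had a log2 fold change below 0, Slc25a22 among them, and 6 above, with a median of 0.05. Slc25a15, which exchanges ornithine for citrulline in the urea cycle, was at 9.28, 9.48 and 6.71 FPKM in WT, against 6.12, 7.44 and 3.74 FPKM in KO. The groups overlapped by WT replicate 3 and KO replicate 2 (log2 fold change −0.51, SE 0.23, limma adjusted p 0.269, and −0.28 without KO replicate 3). Slc25a12 and Slc25a13 encode the aspartate/glutamate carriers of the malate-aspartate shuttle. Slc25a12 was at 6.74, 7.44 and 7.2 FPKM in WT, against 5.92, 8.24 and 8.94 FPKM in KO, and Slc25a13 at 0.76, 0.74 and 0.62 FPKM in WT, against 0.80, 1.07 and 0.61 FPKM in KO. Both overlapped between the groups. Slc25a44, a carrier of branched-chain amino acids described in brown fat, had means of 33.7 ± 2.95 FPKM in WT and 34.0 ± 5.61 FPKM in KO (SD, n = 3 each), with a 95% interval of the log2 fold change from −0.36 to 0.37. The glutamate carrier Slc25a18, a relative of Slc25a22, was low, at 0.25 to 0.67 FPKM in WT and 0.44 to 1.57 FPKM in KO (log2 fold change 0.48, limma adjusted p 0.294, and 0.32 without KO replicate 3 or 0.73 without KO replicate 1). Its exons overlap those of Atp6v1e1 on the other strand. The glycine carrier Slc25a38 (mean 7.45 FPKM), the basic amino acid carrier Slc25a29 (0.807 FPKM) and Slc25a45 (2.86 FPKM) had log2 fold changes of −0.09 to 0.18.

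The ADP/ATP and phosphate carriers supply ATP synthase and export its product. The 3 tested genes of this group all had log2 fold changes below 0, from −0.23 to −0.14, and their sum was 1331 ± 106 FPKM in WT and 1182 ± 17.0 FPKM in KO (SD, n = 3 each). Slc25a5 (chrX:36795597-36798808) was at 593.55, 606.22 and 698.27 FPKM in WT, against 574.57, 573.98 and 563.52 FPKM in KO. The KO libraries lay together just below the lowest WT library (log2 fold change −0.14, SE 0.13, limma adjusted p 0.590). A pseudogene copy, Slc25a5-ps, exists, and reads could have been split between the copies. Slc25a3, the phosphate carrier, showed the same arrangement, with 325.64, 311.70 and 346.08 FPKM in WT and 301.97, 303.08 and 289.01 FPKM in KO (log2 fold change −0.14, SE 0.13, limma adjusted p 0.595). Slc25a4, the ADP/ATP carrier most abundant in muscle and heart, was at 309.83, 404.44 and 396.21 FPKM in WT, against 301.64, 323.38 and 314.57 FPKM in KO. Its groups overlapped through WT replicate 1 (log2 fold change −0.23, SE 0.15, limma adjusted p 0.433, and −0.35 without that library). Skeletal muscle markers, 19 of 20 tested, summed to 1406 to 2042 FPKM in WT and to 350.57, 1531 and 1855 FPKM in KO, with the lowest sum in KO replicate 1. Of the 19, 18 had log2 fold changes below 0, with a median of −0.65, and 0 passed, against 2 lower at an unadjusted p under 0.05, beside 8.6% of all genes. The part of muscle in these values was not tested. Slc25a31, the ADP/ATP carrier of the germ line, was at most 0.2 FPKM in any library and was not tested.

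The ATP-Mg/phosphate carriers adjust the adenine nucleotide pool of the matrix and respond to calcium. Slc25a25 was at 6.02, 5.36 and 6.19 FPKM in WT, against 6.45, 7.04 and 22.86 FPKM in KO. The groups did not overlap, and KO replicate 3 stood far above the rest (log2 fold change 0.72, SE 0.39, limma adjusted p 0.352, and 0.18 without KO replicate 3). An exon of Slc25a25 overlaps Naif1 on the other strand by 379 nt. Slc25a24 was at 13.46, 12.28 and 10.56 FPKM in WT, against 10.46, 15.05 and 9.22 FPKM in KO, with overlap. Slc25a23 had a mean of 40.2 ± 9.44 FPKM in WT and 37.0 ± 10.6 FPKM in KO (SD, n = 3 each).

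The group of di- and tricarboxylate carriers includes Slc25a1, Slc25a10 and Slc25a11, which move citrate, malate, oxoglutarate and related acids between matrix and cytosol. It was drawn to hold Slc25a14, Slc25a27, Slc25a30, Slc25a34 and Slc25a35 as well, so its counts, median and sum are not those of that transport alone. Of the 8 tested, 6 had log2 fold changes below 0 and 2 above, the median was −0.27, and the groups overlapped in all but 1, Slc25a27. Their sum was 219.1 ± 60.9 FPKM in WT and 175.2 ± 19.1 FPKM in KO (SD, n = 3 each). Slc25a35 was at 4.31, 12.23 and 11.37 FPKM in WT, against 6.24, 3.28 and 3.39 FPKM in KO. WT replicate 1 was low and lay inside the range of KO (log2 fold change −0.89, SE 0.35, limma adjusted p 0.217). With that library left out the log2 fold change became −1.32 (limma adjusted p 0.0442). An exon of Slc25a35, whose substrate is not settled, overlaps Rangrf on the other strand by 545 nt. The citrate carrier Slc25a1, which exports citrate for fatty acid synthesis, spread widely within WT, at 53.70 to 128.90 FPKM, and lay at 57.42 to 92.59 FPKM in KO. The dicarboxylate carrier Slc25a10 showed a similar spread, at 3.44 to 10.86 FPKM in WT and 4.84 to 6.21 FPKM in KO. The oxoglutarate/malate carrier Slc25a11 was at 67.65 to 94.37 FPKM in WT and 62.13 to 67.96 FPKM in KO, with overlap of 1 library from each group (log2 fold change −0.33, SE 0.16, limma adjusted p 0.299). Slc25a14, Slc25a27 and Slc25a30 resemble the uncoupling proteins. Slc25a27 was higher in each KO library, at 1.81 to 2.49 FPKM against 1.43 to 1.52 FPKM (log2 fold change 0.29, limma adjusted p 0.326, and 0.19 without KO replicate 3), Slc25a14 had a log2 fold change of 0.41 (adjusted p 0.288) and Slc25a30 one of −0.07. Slc25a34, a relative of Slc25a35, ranged from 7.78 FPKM in KO replicate 2 to 30.85 FPKM in WT replicate 2.

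The carriers of carnitine, cofactors and nucleotides included the highest log2 fold change of the family, 1.41. Of the 10 members, 7 had log2 fold changes below 0 and 3 above. Slc25a20, which exchanges acylcarnitine for carnitine so that fatty acids reach oxidation, was at 262.61, 340.21 and 341.98 FPKM in WT, against 261.51, 204.04 and 255.88 FPKM in KO. WT replicate 1 and KO replicate 1 lay side by side, and the groups did not overlap (log2 fold change −0.39, SE 0.17, limma adjusted p 0.249). Slc25a17, the peroxisomal carrier of CoA, FAD and NAD, was at 93.19, 122.87 and 92.40 FPKM in WT, against 70.50, 49.05 and 88.48 FPKM in KO. All KO libraries were lower, with KO replicate 3 close to the WT range (log2 fold change −0.59, SE 0.22, limma adjusted p 0.199, and −0.36 without KO replicate 2). The CoA carrier Slc25a42 had means of 73.2 ± 16.5 FPKM in WT and 51.9 ± 24.6 FPKM in KO (SD, n = 3 each), with overlap. Slc25a16 (mean 21.5 FPKM), linked to CoA supply, and the S-adenosylmethionine carrier Slc25a26 (7.59 FPKM) had log2 fold changes of −0.14 and −0.13.

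Slc25a51 (chr4:45395923-45408917), which brings NAD into the matrix, was at 167.92, 127.49 and 147.36 FPKM in WT, against 266.43, 182.24 and 369.18 FPKM in KO. All KO libraries were higher, KO replicate 3 most and KO replicate 2 least. The means were 147.6 ± 20.2 FPKM and 272.6 ± 93.6 FPKM (SD, n = 3 each). The log2 fold change of 0.83 had a standard error of 0.24 and did not pass (limma, adjusted p 0.113). Without KO replicate 3 it was 0.58. A microRNA gene, Gm25692, overlaps its exons on the same strand. As a share of the summed FPKM of the family, Slc25a51 made up 6.77, 4.53 and 4.96% in WT and 10.4, 7.91 and 14.2% in KO. The share of Slc25a5 was 23.0% in both group means. Slc25a32 (chr15:39091230-39112720), the carrier of folate and FAD, had this log2 fold change of 1.41 (SE 0.43, limma, adjusted p 0.123). It was at 8.83, 7.46 and 5.80 FPKM in WT, against 15.53, 12.03 and 47.91 FPKM in KO. KO replicate 3 was again the highest, and the other KO libraries also lay above all WT libraries. Without KO replicate 3 the log2 fold change was 0.83. KO replicate 3 was thus the highest library for Slc25a25, Slc25a32 and Slc25a51, and its part in their fold changes is given by the values without it.

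**Figure D4:**
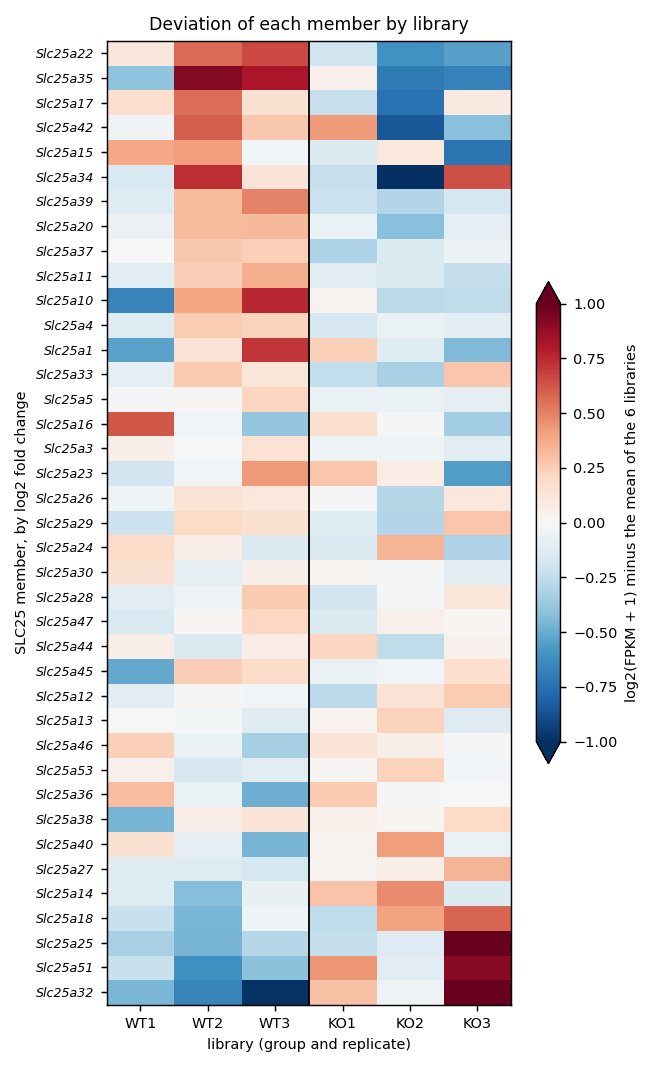
Deviation of log2(FPKM + 1) from the member's mean over the 6 libraries, for 39 tested members (rows, ordered by log2 fold change) in each library (columns), on a colour scale from −1 to 1. WT replicates 2 and 3 are red in most upper rows and WT replicate 1 is paler or blue in many of them, with Slc25a15 and Slc25a17 among the exceptions. KO replicate 3 is dark red for the lowest 3 rows.

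Over the 40 tested members, the mean deviation of log2(FPKM + 1) was −0.08, 0.10 and 0.09 in WT replicates 1, 2 and 3 and −0.01, −0.12 and 0.02 in the KO replicates. WT replicate 1 thus lay below KO replicates 1 and 3, and the groups overlapped.

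The iron and glutathione carriers serve haem and iron-sulphur cluster synthesis and the redox state of the matrix. Of the 4 members, 3 had log2 fold changes below 0 and 1 above. Their sum was 224.7 ± 42.1 FPKM in WT and 170.6 ± 6.55 FPKM in KO (SD, n = 3 each), most of it from Slc25a39. Slc25a39, a glutathione carrier, was at 142.29, 193.30 and 219.14 FPKM in WT, against 133.74, 126.36 and 137.63 FPKM in KO. The KO libraries lay close together below the lowest WT library (log2 fold change −0.46, SE 0.17, limma adjusted p 0.203). Its relative Slc25a40 was at 6.17, 5.10 and 3.68 FPKM in WT, against 5.60, 7.62 and 5.17 FPKM in KO, with overlap. Mitoferrin 1, Slc25a37, the iron importer best known from red cell precursors, was at 6, 7.38 and 7.2 FPKM in WT, against 4.63, 5.29 and 5.70 FPKM in KO. All KO libraries were lower (log2 fold change −0.34, SE 0.15, limma adjusted p 0.261). Its exons overlap an antisense gene, Gm27223, by 92 nt and another gene on the other strand, Gm31748, by 381 nt. Mitoferrin 2, Slc25a28, found in most tissues, was at 25.02, 26.16 and 32.77 FPKM in WT, against 23.62, 26.84 and 29.62 FPKM in KO, with overlap. Erythroid markers, 10 of 15 tested, summed to 2978, 4263 and 11887 FPKM in WT and to 2642 to 3337 FPKM in KO, with 7 log2 fold changes below 0 and 3 above. In WT replicate 3, the library with the highest erythroid sum, Slc25a37 was at 7.2 FPKM, beside 7.38 FPKM in WT replicate 2. The part of red cells in the values of Slc25a37 was not tested.

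The remaining members are those of the outer membrane or with no settled substrate. Slc25a46, which sits in the outer membrane and takes part in shaping mitochondria, had means of 48.7 ± 9.88 FPKM in WT and 52.0 ± 2.70 FPKM in KO (SD, n = 3 each). Slc25a47, best known from liver, lay at 1.33 to 2 FPKM and Slc25a53 at 0.42 to 0.86 FPKM over all libraries. Their log2 fold changes were −0.05 and 0.14. Members not tested, because their mean was under 0.5 FPKM, were Slc25a2, Slc25a21, Slc25a31, Slc25a43 and Slc25a48. Slc25a43 was listed at 0 in 3 libraries and Slc25a48 in 5, and the highest value among the 5 genes was 0.41 FPKM, for Slc25a2 in WT replicate 2. At the depth estimated from the table, 3 reads on 1 kb of transcript amount to 0.2 to 0.22 FPKM, so that differences among these genes were not detectable.

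Balance within pairs of close relatives was read as the share of the first gene in the summed FPKM of the pair, in 6 pairs, with an exact two-sided permutation test that cannot go below 0.1 with 3 libraries against 3. In the pair of mitoferrins, Slc25a37 held 19.3, 22 and 18.0% in WT and 16.4, 16.5 and 16.1% in KO. The KO shares lay close together below all WT shares, a difference of −3.46 points (exact permutation p 0.1, the smallest possible, adjusted over the 6 pairs 0.6). For the ADP/ATP carriers, Slc25a4 held 34.3, 40.02 and 36.2% of the sum with Slc25a5 in WT and 34.4, 36.0 and 35.8% in KO, and the ratio of Slc25a4 to Slc25a5 ran from 0.522 to 0.667 over the libraries (exact permutation p 0.5). These shares overlapped. Slc25a12 held 88.1 to 93.6% of the sum with Slc25a13 over all libraries (exact permutation p 0.7), and Slc25a39 held 94.3 to 98.4% of the sum with Slc25a40 (exact permutation p 0.3). In the pyrimidine nucleotide carriers, Slc25a36 was at 26.20, 19.98 and 14.73 FPKM in WT, against 25.39, 20.72 and 21.08 FPKM in KO, and Slc25a33 at 18.64, 24.30 and 21.90 FPKM in WT, against 16.77, 15.85 and 24.59 FPKM in KO. Slc25a36 held 40.2 to 58.4% of that pair in WT and 46.2 to 60.2% in KO (exact permutation p 0.4). Slc25a24 held 63.0 to 69.6% of the sum with Slc25a25 in WT and 61.9, 68.1 and 28.7% in KO (exact permutation p 0.2), the last in KO replicate 3, where Slc25a25 was high. The adjusted p was 0.6 in each pair but that of Slc25a12 and Slc25a13, where it was 0.7.

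**Figure D5:**
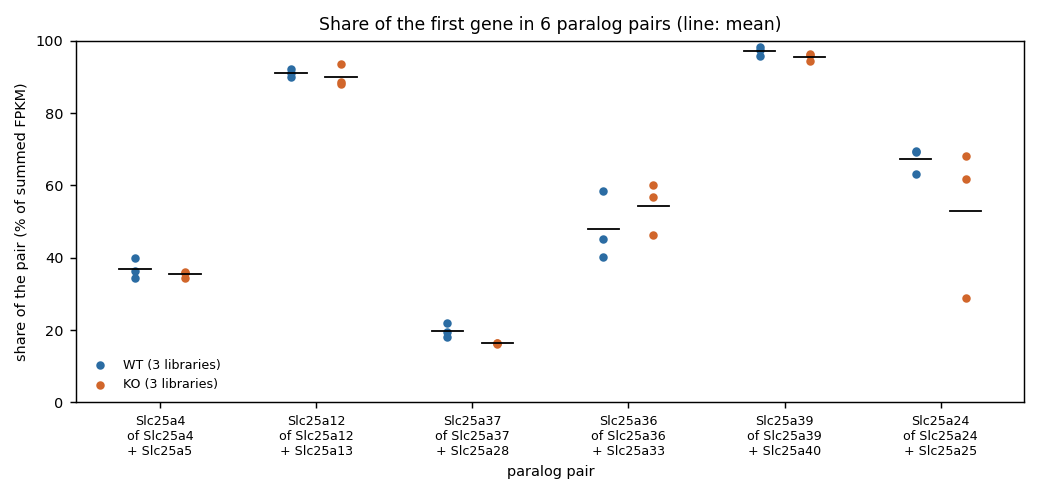
Share of the first gene in the summed FPKM of 6 paralog pairs, in percent, with 1 point per library (blue WT, orange KO) and a line at each group mean. The shares of Slc25a37 do not overlap between the groups, and the share of Slc25a24 in KO replicate 3 is 28.7%.

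Genes that act beside the carriers were read from 3 lists. Carriers reach the inner membrane through the outer membrane pore, small chaperones between the membranes and the carrier translocase Timm22. Of 16 tested genes of this import machinery, 15 had log2 fold changes below 0 and 1 above, with a median of −0.41 beside 0.01 for all genes, and 0 passed the threshold, against 9 at an unadjusted p under 0.05, all lower. Among all genes tested, 48.4% had log2 fold changes below 0 and 8.6% were lower at an unadjusted p under 0.05. Timm22 was at 12.13, 13.55 and 14.35 FPKM in WT, against 8.85, 8.39 and 7.72 FPKM in KO (log2 fold change −0.62, limma adjusted p 0.0594). The chaperone Timm8a1 was at 111.12, 95.98 and 87.55 FPKM in WT, against 65.63, 62.08 and 63.87 FPKM in KO (limma, −0.61, adjusted p 0.0625). In both genes all KO libraries were below all WT libraries. Tomm40l, a variant of the outer membrane pore, was at 17.59, 23.29 and 20.16 FPKM in WT, against 13.03, 12.74 and 8.50 FPKM in KO (limma, −0.79, adjusted p 0.0675).

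Of 16 enzymes that work beside the carriers, in the malate-aspartate, glycerol phosphate, citrate and carnitine shuttles, branched-chain transamination and the citric acid cycle, 14 had log2 fold changes below 0 and 2 above, with a median of −0.30, and 1 passed the threshold. It was lower in KO, beside 1.01% of all genes, and 4 enzymes were lower at an unadjusted p under 0.05, beside 8.6%. Got1, the cytosolic aspartate aminotransferase of the malate-aspartate shuttle, fell from 10.84, 13.82 and 13.71 FPKM in WT to 4.89, 5.13 and 7.82 FPKM in KO (log2 fold change −1.01, SE 0.19, limma adjusted p 0.0406). Its groups did not overlap. The call was lost without WT replicate 2 (limma adjusted p 0.173), WT replicate 3 (0.136), KO replicate 1 (0.112) or KO replicate 2 (0.107). Gpd2, the mitochondrial glycerol phosphate dehydrogenase, had a log2 fold change of −0.70 (limma, adjusted p 0.153) and Mdh1, the cytosolic malate dehydrogenase, one of −0.36 (adjusted p 0.219). The carriers of the malate-aspartate shuttle that stand beside Got1, Slc25a11, Slc25a12 and Slc25a13, did not pass.

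Of 27 other transporters and pores of the mitochondrial membranes, 22 had log2 fold changes below 0 and 5 above, with a median of −0.18, and 0 passed the threshold, against 3 lower at an unadjusted p under 0.05, near the share of 8.6% over all genes. Ucp1 was at 4366, 6124 and 6255 FPKM in WT, against 2902, 1695 and 3592 FPKM in KO (log2 fold change −1.08, limma adjusted p 0.0804). Its KO libraries all lay below WT, and in every library it stood above the sum of the SLC25 members except in KO replicate 2. Letm1, a cation exchanger, had a log2 fold change of −0.64 (limma, adjusted p 0.182). Of 13 brown fat markers, 9 had log2 fold changes below 0 and 4 above, and 2 passed as lower, beside 1.01% of all genes. The 2 were Elovl3 (log2 fold change −2.34, limma adjusted p 0.0151) and Otop1 (−1.52, limma adjusted p 0.0243). Of 10 adipocyte markers, 6 were below 0 and 4 above, and 1 passed as lower, beside the same share of all genes. It was Plin1 (log2 fold change −1.36, limma adjusted p 0.0267). Of 15 macrophage markers, 14 had log2 fold changes above 0, with a median of 0.41, and 0 passed, against 8 higher at an unadjusted p under 0.05, beside 10.6% of all genes. Their summed levels were 154.1 to 227.1 FPKM in WT and 220.7 to 299.9 FPKM in KO. Endothelial markers summed to 623.3 to 832.2 FPKM in WT and 645.6 to 725.0 FPKM in KO, Schwann cell markers to 73.46 to 78.28 FPKM in WT and 59.47 to 85.62 FPKM in KO, and epidermal markers to at most 2.38 FPKM in any library. Of the markers named, 4 epidermal genes were at 0 in at least 1 library and none of the other marker lists had such a gene. The part of these cell types in the values of the carriers was not tested.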

How the data were processed

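Total RNA of the whole interscapular brown adipose depot of newborn mice was sequenced in 6 libraries, 3 WT and 3 KO, grouped by their titles. The authors deposited FPKM values, rounded to 2 decimals, per the file headers. The submitters' processing notes name HISAT2 2.0.4, Bowtie2 2.2.5, DESeq2 and the build mm10, without role or order. The program that made the FPKM, its annotation and its strand handling are not given in the sources used here.

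FPKM are not counts, so no count test was run. The comparison of KO with WT used limma 3.58.1 (R 4.3.3, eBayes with an intensity trend, no covariates) on log2(FPKM + 1), for genes averaging at least 0.5 FPKM. The fit was tested on simulated data for 13331 genes: with 200 of them shifted by a log2 of 1.5 it recovered 172, all in the right direction, with 7 false calls, and with no shift it called 0. The noise was normal and independent between genes, and the shifted genes were drawn from the better expressed ones. The shift was larger than the fold change of any member, so recovery at the sizes seen in the family was not tested. The spacing of low values put depth at 13600000 to 14850000 reads in each library (75.9 to 82.1% of the values used lay within 0.2 of a whole read), so depth differed little. Libraries correlated across genes at 0.972 to 0.986 within a group and 0.957 to 0.974 between groups.

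The family members, their roles and the gene lists were chosen with earlier results of these data known. Members are named under their roles, except 1 that, like 1 gene of a pathway list, is not reported here by name, though both enter all counts, medians and sums. Values per library are given for members past the threshold, the 10 with the smallest p, the 5 highest and both genes of each tested pair. From the pathway lists, genes past the threshold and up to 3 with the smallest p are named. They are given by library, except Gpd2, Mdh1 and Letm1, which are given by log2 fold change and adjusted p only. Genes named for overlaps were chosen after their values were seen. Coordinates and promoter windows come from RefSeq (GRCm38.p6) and exon overlaps from GENCODE M21, both of the assembly that mm10 also denotes. The alternatives tried were other pseudocounts (0.1 and 0.01), filters, scalings, eBayes settings, array weights, a replicate block, protein-coding genes only, a minimum log2 fold change of 1 and leaving out each library. A fit with autosomal genes only was added after seeing the data. Figures were drawn with matplotlib 3.10.9.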

Additional observations from a re-analysis of the deposited data

How the results depend on the processing

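Of 40 tested members, 25 kept the direction of their log2 fold change in every alternative that tested them, 17 to 19 each, and 15 turned in at least 1. None of the 15 had passed the threshold. The number of members called was 0 with no filter on low values, quantile normalization, a common sum, eBayes without the trend, the replicate block and a minimum log2 fold change of 1, and 13 with array weights (10 lower, 3 higher). Leaving out 1 library gave 0 to 2 members, with Slc25a22 and Slc25a35 called without WT replicate 1 and 0 in the other such fits. Slc25a22 stayed called with pseudocounts of 0.1 and 0.01, a filter at 5 FPKM, median-of-ratios scaling, robust eBayes, protein-coding genes and, chosen after seeing the data, autosomal genes. Its log2 fold change ran from −1.06 to −0.79. Got1 stayed called in 14 of 19 alternatives. Over all genes, 295 were called, against 35 with no filter, 191 with a common sum, 3181 with array weights, 465 with protein-coding genes only and 158 with a minimum log2 fold change of 1, the last by its construction. Leaving out 1 library gave 31 (WT replicate 3) to 370 (WT replicate 1) genes. The count was 39 when WT replicate 2 was left out, and 121, 89 and 87 when KO replicates 1, 2 and 3 were. Fewer samples weaken these fits by construction, and what caused the remaining shifts was not tested. Fstl1 kept −2.79 with no filter, at an adjusted p of 0.0606. The family sum in KO ran from 86.0 to 94.0% of WT and the members' median from −0.16 to −0.04 when 1 library was left out.

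The replicate numbers were not taken to pair the libraries, since the labels do not say that equal numbers share a litter or day. The deviations of equal numbers correlated at 0.0681, 0.0433 and 0.0433. These values cannot decide whether the libraries are paired, as unequal numbers were not compared. With the replicate block 167 genes and 0 members were called (Slc25a22, limma, adjusted p 0.0849).

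With array weights the log2 fold change turned in Slc25a12 (−0.0632), Slc25a16 (0.0213), Slc25a23 (0.0557), Slc25a30 (0.0579) and Slc25a45 (−0.211), and with median-of-ratios scaling in Slc25a44 (−0.0148). Leaving out 1 library turned members that lay near 0, with log2 fold changes from −0.533 to 0.091 for Slc25a1, −0.0224 to 0.239 for Slc25a12, −0.00269 to 0.179 for Slc25a13, −0.37 to 0.14 for Slc25a16, −0.31 to 0.11 for Slc25a23, −0.27 to 0.0561 for Slc25a24, −0.137 to 0.0533 for Slc25a28, −0.254 to 0.0286 for Slc25a29, −0.0357 to 0.359 for Slc25a36, −0.0136 to 0.289 for Slc25a38, −0.10 to 0.13 for Slc25a44, −0.19 to 0.19 for Slc25a45, −0.0298 to 0.256 for Slc25a46 and −0.14 to 0.0423 for Slc25a47. The difference in the share of Slc25a4 in its pair ran from −2.68 to 0.18 points, turning without WT replicate 2, and that of Slc25a12 from −2.66 to 0.0958 points, turning without KO replicate 1. The cause was not tested. Depth limits the members under 0.5 FPKM.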

Other observations

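The libraries took unequal shares of the extremes of the family. Of the 40 tested members, 11 had their highest value in WT replicate 3, 10 in WT replicate 2, 9 in KO replicate 3, 5 in KO replicate 2, 4 in WT replicate 1 and 1 in KO replicate 1. The lowest value lay in KO replicate 2 for 11 members and in KO replicate 3 for 9. The extremes of all genes tested were also uneven. In KO replicate 2, 22.1% of all genes and 12.5% of the members were highest, and 11.8% and 27.5% were lowest. In KO replicate 3, 21.7% of all genes and 22.5% of the members were lowest. In WT replicate 3, 26.8% of all genes and 15% of the members were lowest, and 18% and 27.5% were highest. The median coefficient of variation of the members was 18.9% in WT and 19.3% in KO, and that of all genes tested was 17.5% in WT and 14.2% in KO. These are descriptions of 6 libraries, with no test.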
